A study of Sus scrofa with 24 samples.

Results

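The autophagy and lysosome genes of pig Longissimus dorsi (LD), the large muscle along the back, were followed across 2 ages and 2 genetic types. Members were taken by symbol: the cathepsins (CTS and 1 letter), the numbered ATG genes, the MAP1LC3 and GABARAP genes, the LAMP genes, the V0 and V1 subunits of the vacuolar proton pump (ATP6V0 and ATP6V1), the ULK kinases, and SQSTM1, TFEB and BECN1. The rule found 55 of the 22861 genes in the table, with 54 symbols, in 8 classes. CTSF was present as 2 entries, ENSSSCG00000027368 and ENSSSCG00000021340, called CTSF_27368 and CTSF_21340 here, and only these 2 members took their symbol from the tables of the study rather than from the gene name list.

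The animals were male pigs, either pure Iberian (IB) or Iberian crossed with Duroc (IBxDU), a faster growing and leaner breed. There were 6 IB and 6 IBxDU newborns, whose label gives postnatal day 1 while the methods place sampling at birth, and 6 IB and 6 IBxDU pigs at 4 months. Each animal gave 1 library of LD mRNA. Different animals were sampled at each age, all dams were Iberian, and several animals shared a litter, so that p-values, which treat the animals as independent, may be too small. Sire breed and litter cannot be told apart from genetic type, since no litter held both. The older pigs were slaughtered after a fast, so that age and feeding state cannot be told apart.

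Autophagy is the route by which a cell encloses part of its cytoplasm in a double membrane, the autophagosome, and delivers it to the lysosome for breakdown. The ULK kinases start the process, BECN1 and ATG14 act in the lipid kinase complex that marks the forming membrane, the ATG conjugation enzymes attach the small ATG8 proteins (the MAP1LC3 and GABARAP family) to it, and SQSTM1 carries tagged cargo to those proteins. The lysosome is kept acidic by the vacuolar proton pump, lined by LAMP proteins and filled with cathepsins, and TFEB is a transcription factor that switches on many of these genes. In skeletal muscle the route is known for clearing damaged mitochondria and proteins and for protein loss in fasting.

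Library totals averaged 26970000 reads (SD 4150000, n = 24) and ranged from 19990000 to 35890000, of which 41505 to 88162 fell in the members. Levels are RPKM, reads per kilobase of gene relative to the library total, scaled between libraries by a trimmed mean. In 8 libraries over 99% of the total lay in listed genes, against 88.0 to 96.2% in the other 16. The 8 were 4 IBxDU and 1 IB newborn and 2 IBxDU and 1 IB pig at 4 months, so that this difference of unknown origin was uneven between the newborn groups. Of 10 skeletal muscle markers 3 were found by symbol (ACTA1, DES and PYGM), and all 3 were higher at 4 months. Their summed level was 20896 to 65073 scaled RPKM in newborns and 72298 to 268345 at 4 months. Markers of some other cells lay the other way and were higher at birth. Among them were 3 of 4 fibroblast markers tested (sums of 588 to 2010 scaled RPKM in newborns and 429 to 783 at 4 months). So were 2 of 3 erythroid markers (161 to 2067 and 46.3 to 247) and 5 of 8 neutrophil markers. Higher at 4 months were both adipocyte markers found (1.60 to 30.8 and 8.91 to 43.5), 4 of 5 T and killer cell markers and 3 of 8 macrophage markers. The part of all these cells in the age results was not tested. In whole muscle, fewer cells of a type and less RNA per cell cannot be told apart.

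The age comparison set 12 newborns against 12 pigs at 4 months with the genetic types pooled. Of 48 members tested, 18 were higher at 4 months and 3 were higher at birth, at the limits used throughout (p of at most 0.01 and a difference of at least 1.5-fold; limma). These are 37.5% and 6.25% of the members, while 20.9% of all 12180 genes tested were higher at 4 months and 24.5% were higher at birth. The median log2 difference, newborns minus 4 months, was -0.40 over the members and 0.10 over all genes. At an adjusted p under 0.05 (limma, Benjamini-Hochberg over all genes tested) 27 members were higher at 4 months and 7 at birth, against 30.1% and 35.5% of all genes. In 8 members no newborn reached the lowest pig at 4 months (8.65% of all genes), and no member was separated the other way (6.88% of all genes). The 8 were CTSW, ATG4D, ATG9A, SQSTM1, MAP1LC3B, GABARAPL2, CTSC and LAMP1.

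These differences are relative to the other genes of each library. In the table as deposited, without scaling, the median of all genes was at 0.91 on the log2 scale, so that most genes appeared higher at birth. Of all 12180 genes 7495 were called higher at birth and 719 higher at 4 months. Of the 48 members 17 were then called higher at birth and 3 higher at 4 months (CTSW, ATG4D and ATP6V1G2). The member median was then 0.43, below that of all genes as before, but 36 of 48 members and the median of every class were positive. Of the 18 members called higher at 4 months, 12 kept a negative difference without scaling, and ATG4A, ATG16L1, TFEB, LAMP1, CTSA and CTSB turned positive, at 0.03 to 0.21. Under quantile normalization 13 members were higher at 4 months and 2 at birth, against 2443 and 2418 of all 12180 genes. All levels and differences that follow are after scaling.

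**Figure D1:**
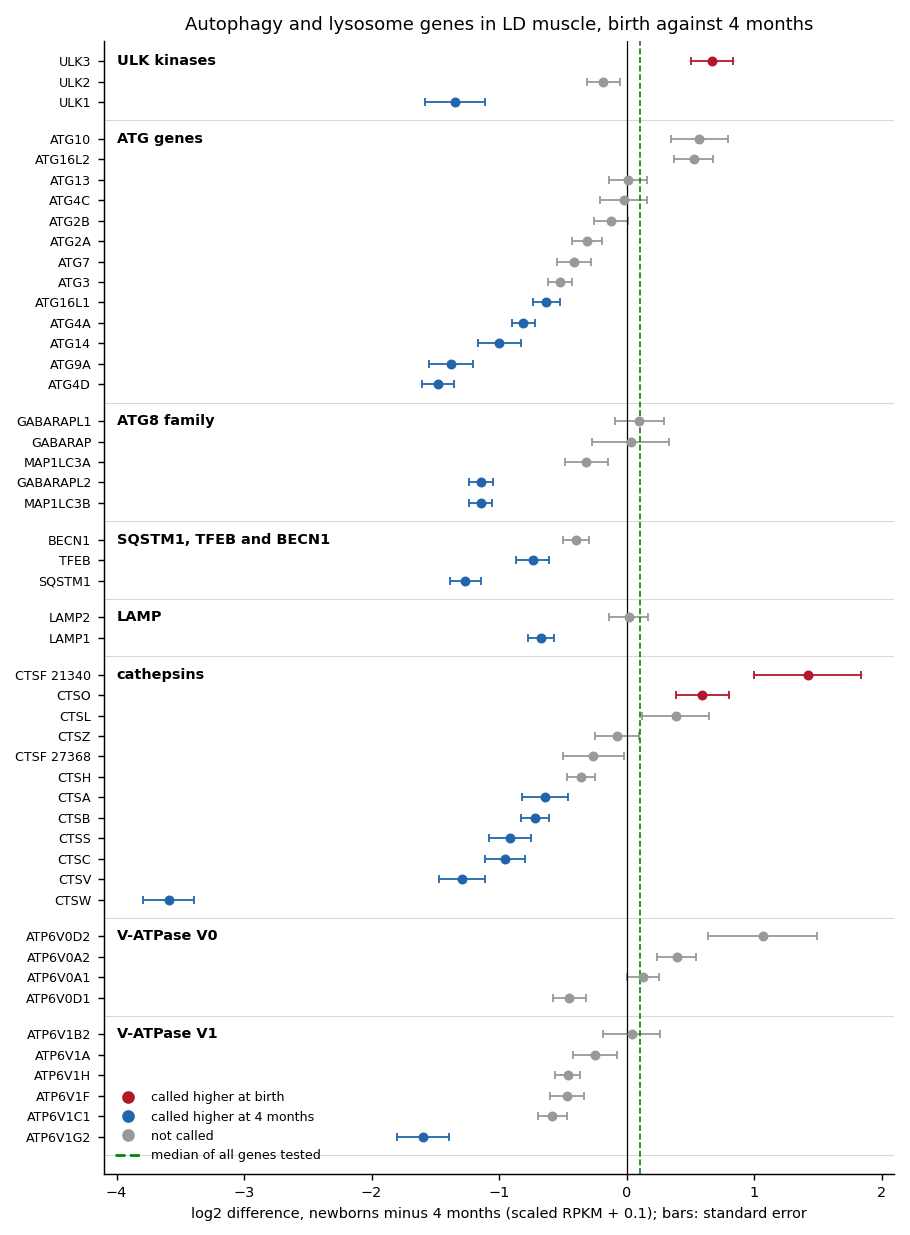
Log2 difference between newborns and 4 months (scaled RPKM + 0.1; points, with bars for the standard error) for the 48 members tested, by class; the dashed line is the median of all genes tested, 0.10. The 18 blue points, led by CTSW at -3.59, were called higher at 4 months (6 of them turned slightly positive without scaling), and the 3 red points (ULK3, CTSF_21340 and CTSO) were called higher at birth.

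The ULK kinases diverged: ULK1 was higher at 4 months, ULK3 was higher at birth, and ULK2 was not called at -0.18 on the log2 scale. ULK1, the kinase that starts autophagy when nutrients are short, had a lowest, median and highest level of 12.1, 21.4 and 41.8 scaled RPKM in IB newborns and 5.57, 10.6 and 15.2 in IBxDU newborns. At 4 months the levels were 30.2, 35.8 and 40.4 in IB and 27.7, 42.0 and 55.9 in IBxDU. The IBxDU newborns lay below every older pig, while the IB newborns overlapped with both older groups. ULK1 was 2.54-fold higher at 4 months (log2 -1.35 ± 0.24 SE, adjusted p = 1.94e-05, limma). ULK3, a related kinase also known in hedgehog signalling, had levels of 4.46, 4.89 and 5.69 in IB newborns and 5.18, 7.29 and 9.40 in IBxDU newborns. The older pigs had 1.69, 3.77 and 5.42 in IB and 2.96, 3.87 and 5.62 in IBxDU, with overlap between the ages. ULK3 was 1.59-fold higher at birth (log2 0.67 ± 0.17, adjusted p = 0.00106, limma), and without IB 889 its difference of 0.57 fell under the fold limit.

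Among the ATG genes, 5 of 13 tested were higher at 4 months and none was called higher at birth, with a class median of -0.41 on the log2 scale. The 5 were ATG4D, ATG9A, ATG14, ATG4A and ATG16L1. ATG4D belongs to the proteases that trim ATG8 proteins before they are attached to lipid and release them afterwards. Its levels were 5.31, 6.08 and 6.68 scaled RPKM in IB newborns and 5.25, 6.07 and 10.7 in IBxDU newborns. The pigs at 4 months had 14.4, 17.4 and 21.2 in IB and 12.8, 16.7 and 29.5 in IBxDU, above every newborn. ATG4D was 2.79-fold higher at 4 months (log2 -1.48 ± 0.13, adjusted p = 1.56e-10, limma).

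ATG9A, the only membrane-spanning protein among the core ATG proteins, carries lipid to the growing autophagosome. It reached 20.8, 24.1 and 36.8 scaled RPKM in IB newborns and 14.0, 21.3 and 25.9 in IBxDU newborns. At 4 months it reached 50.8, 53.4 and 97.95 in IB and 40.4, 52.9 and 129.6 in IBxDU, with no overlap between the ages. The difference was 2.60-fold (log2 -1.38 ± 0.17, adjusted p = 1.27e-07, limma). ATG14, which directs the lipid kinase complex of BECN1 to the forming autophagosome, was a low member. Its medians were 1.36 in IB and 1.04 in IBxDU newborns and 2.58 in both groups at 4 months, and newborns ranged up to 2.13 and older pigs down to 1.48. The difference was 1.996-fold (log2 -0.997 ± 0.17, adjusted p = 9.87e-06, limma). ATG4A, another protease of ATG8 proteins, and ATG16L1, which positions the enzyme complex that attaches them to lipid, differed by -0.81 ± 0.09 and -0.63 ± 0.11 on the log2 scale. The conjugation enzymes ATG7 (-0.41) and ATG3 (-0.52) missed the 1.5-fold limit, and ATG10 (0.57), ATG16L2 (0.53) and ATG13 (0.01) were not called.

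The ATG8 family split as well. MAP1LC3B and GABARAPL2 were higher at 4 months in all 12 pigs than in any newborn, and MAP1LC3A (-0.32), GABARAP (0.03) and GABARAPL1 (0.10) were not called. MAP1LC3B, whose lipid-bound form is the usual marker of autophagosomes at the protein level, had levels of 32.4, 40.9 and 46.7 scaled RPKM in IB newborns and 27.4, 33.0 and 45.3 in IBxDU newborns. At 4 months these were 77.3, 84.8 and 104 in IB and 62.7, 80.6 and 87.4 in IBxDU, a 2.21-fold difference (log2 -1.14 ± 0.09, adjusted p = 5.66e-11, limma). GABARAPL2, a family member also known from traffic within the Golgi, had levels of 29.9, 35.5 and 42.3 in IB newborns and 25.6, 31.3 and 41.6 in IBxDU newborns. At 4 months they were 65.9, 75.9 and 97.0 in IB and 61.8, 72.1 and 85.8 in IBxDU, again 2.21-fold higher (log2 -1.14 ± 0.09, adjusted p = 6.25e-11, limma). MAP1LC3A, the most abundant of the family on the RPKM scale, ranged from 45.2 to 120 in newborns and from 60.6 to 162 at 4 months, so that the ages overlapped widely.

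SQSTM1 (p62), the cargo receptor, was the most abundant member with a mean of 165 scaled RPKM over all animals. Its levels were 74.0, 109 and 117 in IB newborns and 72.7, 81.8 and 145 in IBxDU newborns. In older pigs the levels were 201, 248 and 308 in IB and 163, 216 and 253 in IBxDU, and the ages did not overlap. SQSTM1 was 2.40-fold higher at 4 months (log2 -1.26 ± 0.12, adjusted p = 2.11e-09, limma). TFEB, the lysosomal transcription factor, was 1.67-fold higher at 4 months (log2 -0.74 ± 0.13), without scaling at 0.11. It had levels of 12.6, 17.4 and 18.9 in IB newborns, 11.1, 13.4 and 17.0 in IBxDU newborns, 20.2, 25.3 and 29.9 in IB at 4 months and 15.8, 22.3 and 43.5 in IBxDU at 4 months. Only 1 older pig, IBxDU 702 at 15.8, lay within the newborn range. BECN1, the regulatory subunit of the lipid kinase complex, was not called at 1.32-fold (log2 -0.40 ± 0.10, adjusted p = 0.00152, limma). It lay between 10.6 and 19.4 in newborns and between 13.9 and 22.2 at 4 months.

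LAMP1, a heavily glycosylated protein of the lysosomal membrane, was higher at 4 months after scaling (0.17 without it), and LAMP2, which also takes part in fusion of autophagosomes with lysosomes, was not called at 0.02 on the log2 scale. LAMP1 levels were 41.2, 44.6 and 48.3 scaled RPKM in IB newborns and 30.7, 35.9 and 44.0 in IBxDU newborns. In older pigs the levels were 55.8, 67.3 and 77.1 in IB and 49.7, 63.3 and 96.7 in IBxDU. The lowest older pig stood just above the highest newborn, and the difference was 1.59-fold (log2 -0.67 ± 0.10, adjusted p = 1.81e-06, limma). LAMP2 ranged from 4.83 to 11.8 in newborns and from 5.26 to 11.2 at 4 months.

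**Figure D2:**
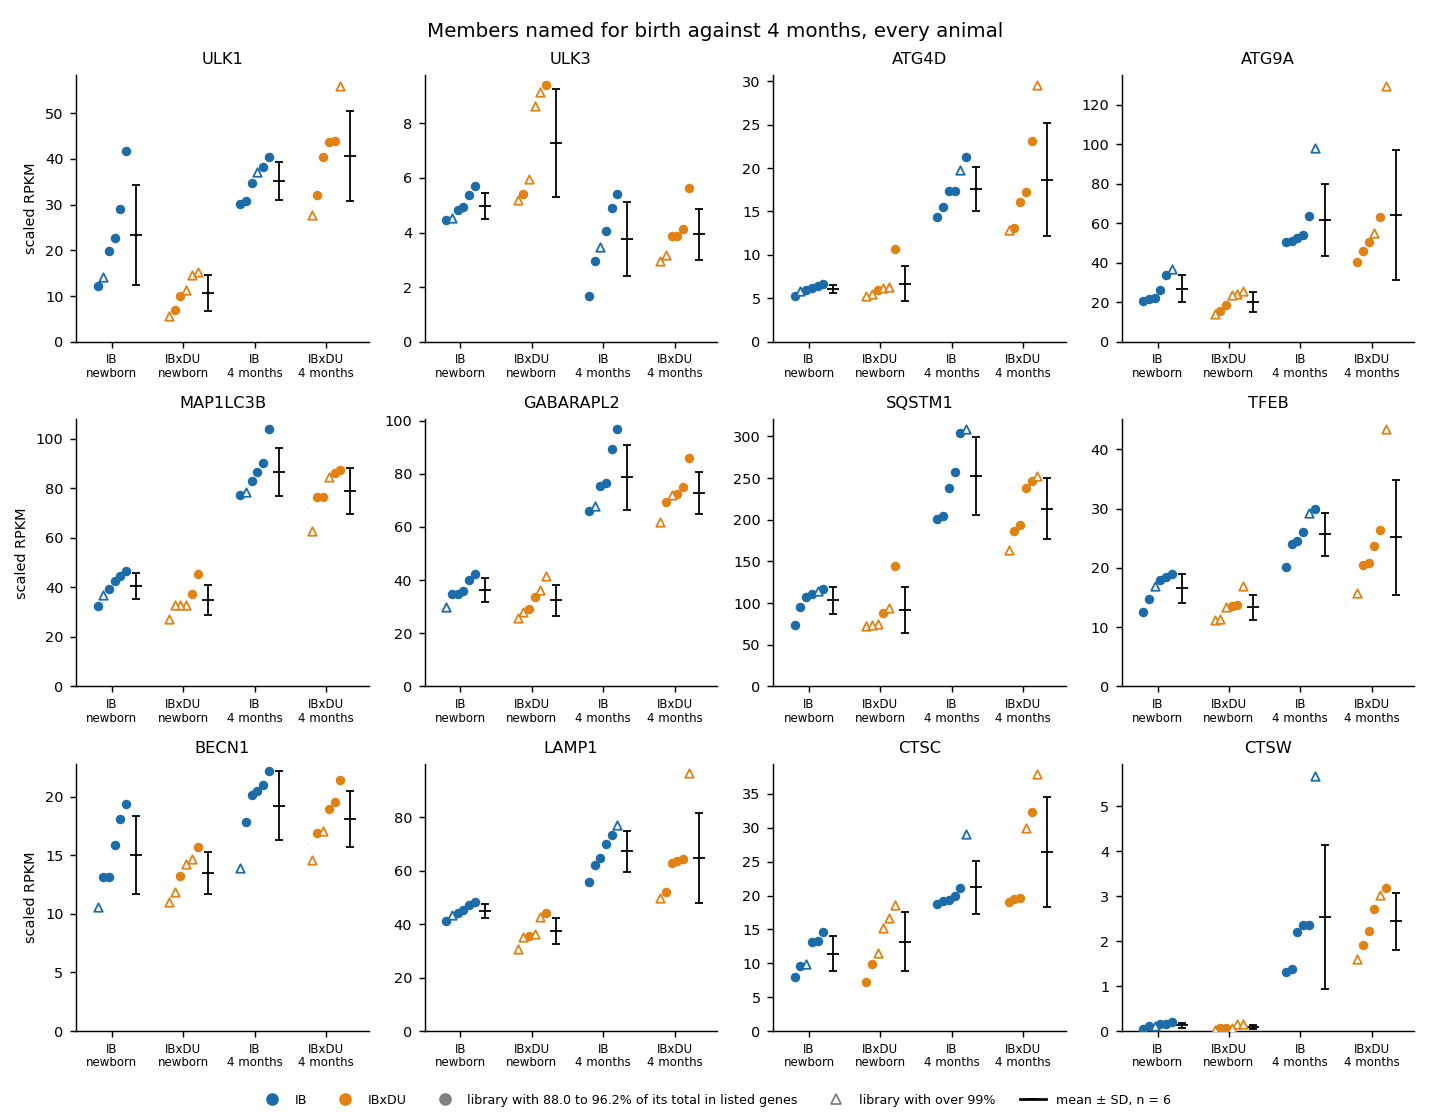
Scaled RPKM of 12 members in each of the 24 animals (points; blue IB, orange IBxDU; open triangles are the 8 libraries with over 99% of the total in listed genes), with mean and SD of the 6 animals per group. ATG4D, ATG9A, MAP1LC3B, GABARAPL2, SQSTM1, LAMP1, CTSC and CTSW do not overlap between the ages, while BECN1 and ULK3 do.

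The cathepsins, the proteases of the lysosome, showed both directions. Of 12 tested, 6 were higher at 4 months (CTSW, CTSV, CTSC, CTSS, CTSB and CTSA) and 2 at birth (CTSF_21340 and CTSO), with a class median of -0.50 on the log2 scale. CTSW, a cathepsin known from cytotoxic lymphocytes, had the largest difference of any member. Its levels were 0.0359, 0.131 and 0.195 scaled RPKM in IB newborns and 0.0251, 0.0695 and 0.156 in IBxDU newborns. At 4 months they were 1.30, 2.28 and 5.66 in IB and 1.60, 2.47 and 3.19 in IBxDU, so that every older pig lay several-fold above every newborn. The difference was 12.04-fold on the log2(scaled RPKM + 0.1) scale (log2 -3.59 ± 0.20, adjusted p = 5.94e-14, limma), which understates the change of such a low gene.

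Markers of T and killer cells moved with CTSW. Of 11 symbols in that list 8 were found, 5 were tested and 4 were higher at 4 months, with a median log2 difference of -2.37. Leaving out CD8B, which was high in the 8 libraries with the larger share in listed genes, their summed level was 0.90 to 2.92 scaled RPKM in IB newborns, 1.00 to 1.83 in IBxDU newborns, 7.61 to 16.4 in IB at 4 months and 3.43 to 20.5 in IBxDU at 4 months. With CD8B the sums were 0.913 to 100, 1.00 to 268, 7.72 to 421 and 3.50 to 628 in the same order. GNLY, the gene of a killer cell granule protein, averaged 0.250 in newborns and 8.02 at 4 months. The part of these cells in the CTSW result was not tested.

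CTSV, in this annotation a close relative of CTSL, was the second most abundant cathepsin. Reads that CTSV and CTSL share could be divided between them by the counting. CTSV levels were 27.1, 46.8 and 87.8 scaled RPKM in IB newborns and 28.9, 55.1 and 64.0 in IBxDU newborns. At 4 months they were 72.5, 132 and 165 in IB and 91.9, 102 and 144 in IBxDU, with 1 high IB newborn reaching into the older range. The difference was 2.45-fold (log2 -1.29 ± 0.18, adjusted p = 7.02e-07, limma). CTSC, which activates the serine proteases of immune cell granules, had levels of 7.99, 11.5 and 14.6 in IB newborns and 7.28, 13.4 and 18.6 in IBxDU newborns. The older pigs had 18.7, 19.7 and 29.0 in IB and 19.1, 24.8 and 37.9 in IBxDU, above all newborns by a narrow margin (1.94-fold, log2 -0.96 ± 0.16, adjusted p = 7.52e-06, limma). CTSB, the most abundant cathepsin and a general protease of the lysosome, averaged 84.8 ± 14.7 (SD, n = 12) in newborns and 140 ± 26.0 at 4 months, a log2 difference of -0.72 ± 0.11. CTSS, known from antigen presenting cells, and CTSA, a carboxypeptidase that protects other lysosomal enzymes, differed by -0.91 ± 0.17 and -0.64 ± 0.18. The CTSA call was lost when IBxDU 425, IBxDU 426, IBxDU 732 or IB 903 was left out (4 of 24 fits). Of 12 macrophage markers 8 were found and tested, and 3 were higher at 4 months. Their summed level was 13.5 to 60.8 scaled RPKM in newborns and 29.5 to 96.3 at 4 months, and the part of macrophages in the cathepsin results was not tested.

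CTSF is a cathepsin active in the lysosome, and its 2 entries went different ways. CTSF_21340 was 2.67-fold higher at birth (log2 1.42 ± 0.42, adjusted p = 0.00452, limma), with levels of 3.78, 9.14 and 27.2 scaled RPKM in IB newborns and 3.26, 5.22 and 15.5 in IBxDU newborns. At 4 months its levels were 1.52, 4.32 and 17.7 in IB and 0.809, 1.76 and 3.17 in IBxDU. The spread within groups was wide, and all 6 older IBxDU pigs and 2 of 6 older IB pigs lay below all newborns. CTSF_27368 was not called between the ages (log2 -0.26). CTSF_27368 held 33.1 to 93.2% of the summed level in IB newborns and 87.0 to 96.4% in IBxDU pigs at 4 months, so that the division of reads between the entries differed from animal to animal. Summed, an alternative chosen after seeing the data, CTSF differed by 0.11 ± 0.21 on the log2 scale between the ages. CTSO, a low cathepsin, was 1.51-fold higher at birth (log2 0.59 ± 0.21, adjusted p = 0.0143, limma), with medians of 0.491 and 0.359 in IB and IBxDU newborns and 0.203 and 0.283 at 4 months. Its ranges overlapped, and its call was lost in 14 of the 24 fits that leave out 1 animal.

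The vacuolar proton pump has a membrane sector, V0, and a sector that splits ATP, V1. No V0 member was called by age among 4 tested, and the V0 sums overlapped at 17.5 to 25.0 scaled RPKM in newborns and 18.1 to 34.9 at 4 months. In V1, 1 of 6 was called, ATP6V1G2, an isoform known from neurons. It rested on few reads, with medians of 0.179 and 0.124 scaled RPKM in IB and IBxDU newborns and 0.601 and 0.73 at 4 months (3.02-fold, log2 -1.59 ± 0.20, adjusted p = 1.91e-07, limma). Newborns reached 0.324 and the lowest older pig was at 0.276. The other V1 members tested, of which ATP6V1A and ATP6V1B2 form the ATP-splitting head, lay between -0.58 (ATP6V1C1) and 0.04 (ATP6V1B2). ATP6V1C1 passed the limits in 10 of the 24 fits that leave out 1 animal.

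ATP6V0D2, a V0 isoform known from osteoclasts and kidney, was present almost only in newborns. It had 383 reads in newborn IBxDU 425, 37 in newborn IB 503, 32 in newborn IBxDU 429 and at most 9 in the other newborns, and 1 read in all 12 pigs at 4 months. In scaled RPKM its median was 0.0186 in IB newborns (highest 0.405) and 0.109 in IBxDU newborns (highest 3.18). Its log2 difference of 1.07 ± 0.43 (adjusted p = 0.0311, limma) missed the limits, and it failed the filter on low values without IBxDU 425. With a pseudocount of 0.01 the difference was 2.68 and was called. Of 8 osteoclast markers 7 were found, with sums of 4.5 to 15.9 in IB newborns, 4.49 to 6.51 in IBxDU newborns, 2.79 to 3.51 in IB at 4 months and 2.18 to 5.19 in IBxDU at 4 months. Of the 4 tested by age, CALCR (1.496 scaled RPKM in newborns, 0.886 at 4 months) and ITGB3 (2.18 and 0.824), which other cells also express, were higher at birth, and the median log2 difference was 0.87. The more specific markers OSCAR, DCSTAMP and OCSTAMP averaged at most 0.0975 at either age. IB 503 had the highest osteoclast sum (15.9) and the highest cartilage and bone sum (43.8), while IBxDU 425 had 5.45 and 1.47, and the part of these cells in the ATP6V0D2 result was not tested.

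The remaining 7 members had a mean of at most 0.5 RPKM in every group and entered no comparison. They were ATG9B, ATP6V0A4, ATP6V1B1, ATP6V1C2, ATP6V1E2, LAMP5 and ULK4, with at most 63 reads in any library (ATP6V0A4). ATP6V1B1 and LAMP5 were at 0 in 19 of the 24 libraries.

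Other genes of the pathway, were also higher at 4 months more often than at birth. Of 86 symbols 64 were found and 62 tested, and 20 were higher at 4 months and 5 at birth, with a median log2 difference of -0.41. By role, 7 of 23 lysosomal enzymes and membrane proteins, 8 of 24 autophagy genes and 5 of 15 regulators were higher at 4 months, and 2, 3 and 0 were higher at birth. Of all genes 20.9% were higher at 4 months and 24.5% at birth. OPTN, a receptor that brings damaged mitochondria and bacteria to autophagosomes, averaged 11.96 ± 4.31 (SD, n = 12) scaled RPKM in newborns and 159 ± 45.4 at 4 months (log2 -3.76 ± 0.20). PINK1, the kinase that marks damaged mitochondria, averaged 62.7 ± 18.3 and 163 ± 28.5 (log2 -1.42 ± 0.15). SCARB2, a lysosomal membrane protein, differed by -1.27 ± 0.13 and RRAGD, which tethers the growth kinase mTORC1 to the lysosome, by -1.23 ± 0.14, and in these 4 genes the ages did not overlap. In the other direction TP53INP2, which helps recruit ATG8 proteins, averaged 63.9 ± 21.1 in newborns and 24.3 ± 8.98 at 4 months (log2 1.39 ± 0.19). PLEKHM1, an adaptor for lysosome fusion, and PIK3R4, a subunit of the BECN1 complex, were higher at birth by 0.77 ± 0.13 and 0.61 ± 0.11 on the log2 scale.

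The age comparison was also made within each genetic type, with no animal shared between the fits. Of 46 members tested in both, 15 were higher at 4 months in IB and 19 in IBxDU. The 2 lists shared 13 members, 86.7% of the IB list and 68.4% of the IBxDU list. Over all 11821 genes tested in both, the shared part was 76.0% and 76.6%. The 13 were ATG14, ATG16L1, ATG4A, ATG4D, ATG9A, CTSC, CTSS, CTSV, CTSW, GABARAPL2, MAP1LC3B, SQSTM1 and TFEB. Higher at birth were CTSO, CTSL and ATG16L2 in IB and ULK3, ATP6V0A2, CTSF_21340 and ATG10 in IBxDU, with 0 shared, against 61.5% and 74.2% shared over all genes called higher at birth. The difference between the types was tested only as the interaction given last.

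Summed over the 55 members, the level was 801 to 972 scaled RPKM in IB newborns and 640 to 917 in IBxDU newborns, and 1251 to 1611 in IB and 1067 to 1729 in IBxDU at 4 months. The cathepsin sum was 256 to 308 in IB newborns and 188 to 251 in IBxDU newborns, without overlap, and 337 to 449 and 316 to 523 at 4 months. The ATG genes summed to 71.4 to 91.9 in IB newborns and 63.5 to 74.7 in IBxDU newborns, and to 125 to 183 and 114 to 226 at 4 months. Sums follow the most abundant genes of a class and are given as a description.

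**Figure D3:**
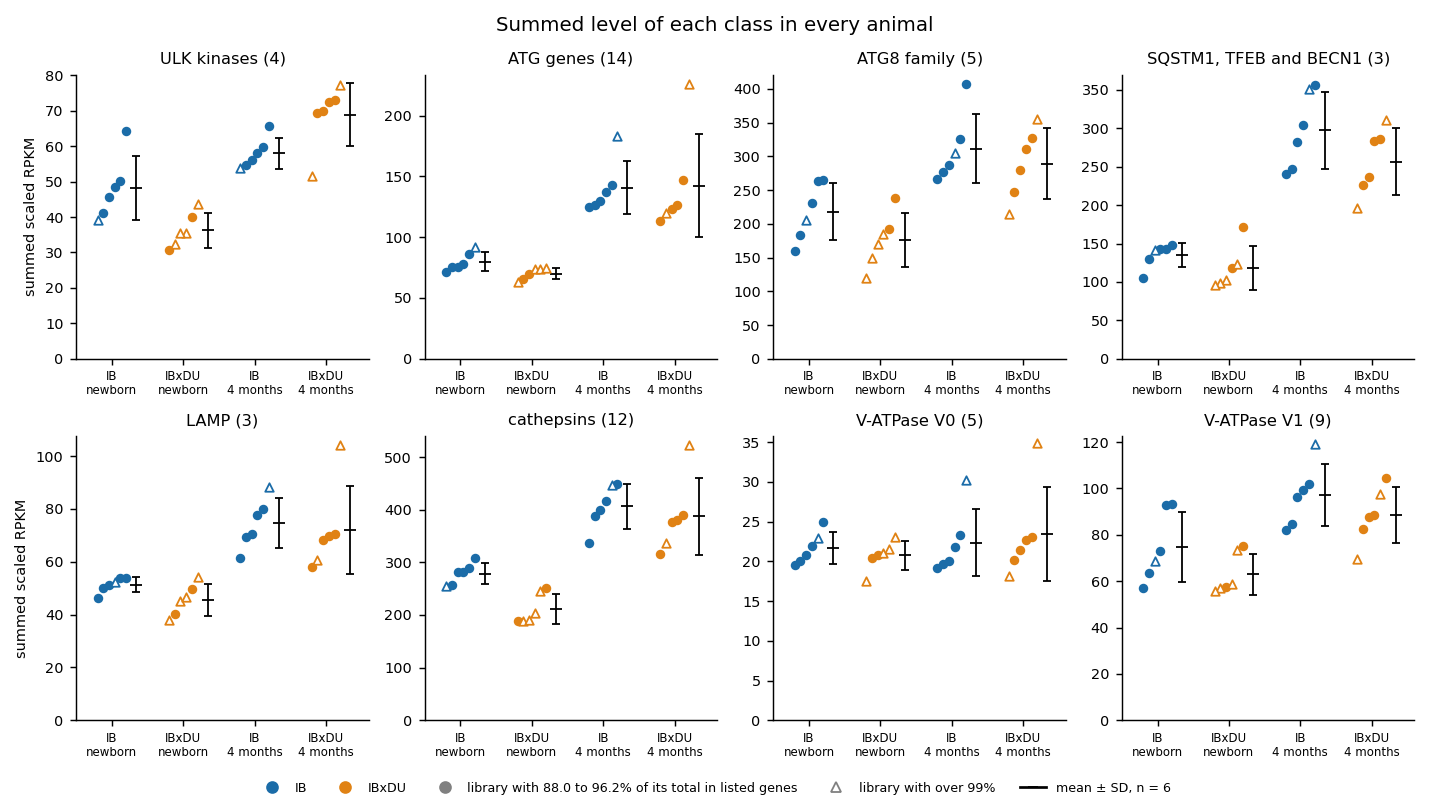
Summed scaled RPKM of each class in each of the 24 animals, by group, with mean and SD of the 6 animals. After scaling, the sums of the ATG genes, the LAMP genes, the cathepsins and SQSTM1 with TFEB and BECN1 lie higher at 4 months than in any newborn, and the V0 sum does not separate the ages.

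Genetic types were compared at birth with 6 IBxDU against 6 IB newborns. At the limits, 4 of 46 members tested were higher in IB (8.70%) and 0 were higher in IBxDU, against 2.22% and 1.98% of all 12290 genes tested. None passed an adjusted p under 0.05 (limma), and the share of all genes was 0 as well. At an unadjusted p under 0.05 (limma) there were 10 members higher in IB and 3 higher in IBxDU (ULK3, ATP6V0A2 and ATG10), against 9.54% and 9.1% of all genes, and without scaling there were 4 and 3. The median log2 difference, IBxDU minus IB, was -0.19 over the members, 33 of which were negative, and -0.01 over all genes. By class, the cathepsins had 10 of 11 members lower in IBxDU, 2 of them called, with a median of -0.35. Macrophage markers lay the same way: the 8 tested had a median of -0.49, 1 was called higher in IB (CSF1R, -0.92 ± 0.24), and their sums were 24.7 to 60.8 scaled RPKM in IB and 13.5 to 55.7 in IBxDU newborns. The part of macrophages in the differences between newborns was not tested. The members called in IB were ATG13, CTSL, CTSF_27368 and ULK1. Newborn IB 503 stood apart in its summed neutrophil markers (195 scaled RPKM, other newborns 1.14 to 13.8). Without it all 4 calls held, and ATP6V0A2 and ATG10 were called higher in IBxDU. IB 503 was also the only IB newborn with over 99% of its total in listed genes. ATG10 was at 2.76 to 3.88 scaled RPKM in newborns with over 99% and at 1.19 to 1.90 in the others. Those others included IBxDU 426 and IBxDU 429.

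ATG13, the partner that activates ULK1 in the initiation complex, had levels of 5.50, 6.62 and 7.56 scaled RPKM in IB newborns and 2.58, 3.55 and 5.29 in IBxDU newborns. Every IB newborn lay above every IBxDU newborn, a 1.77-fold difference (log2 -0.82 ± 0.17, two-sided exact permutation p = 0.00216, the smallest that 6 against 6 allows, adjusted p = 0.0907). At 4 months the groups overlapped at 4.62, 4.84 and 5.68 in IB and 4.35, 4.53 and 5.48 in IBxDU, with medians between those of the newborn groups. ULK1, its kinase, was 2.12-fold higher in IB newborns (log2 -1.09 ± 0.32, exact permutation p = 0.0152, adjusted p = 0.141), with the levels given above, and 2 IB newborns overlapped the IBxDU range. The ULK1 call was lost when IBxDU 425, IBxDU 426, IB 345 or IB 330 was left out (lost in 4 of 12 such fits), while the other 3 calls held in all 12. Another member without overlap was ATG2A, a lipid transfer protein that feeds the growing autophagosome, at 4.01, 4.32 and 5.33 in IB newborns and 2.95, 3.41 and 3.85 in IBxDU newborns. It stayed under the fold limit (log2 -0.39 ± 0.12, exact permutation p = 0.00216). These were the 2 members without overlap and higher in IB, against 0.732% of all genes, and no member was separated with IBxDU higher, against 0.513%.

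CTSL, a broad lysosomal protease, was 2.32-fold higher in IB newborns (log2 -1.22 ± 0.28, exact permutation p = 0.00433, adjusted p = 0.105). Its levels were 1.06, 1.74 and 3.23 scaled RPKM in IB and 0.536, 0.698 and 1.43 in IBxDU newborns, and only the lowest IB and the highest IBxDU newborn overlapped. At 4 months its levels were 0.395, 0.869 and 1.55 in IB and 0.483, 1.01 and 1.33 in IBxDU. CTSL rested on 27 to 140 reads per newborn and averaged 1.38 scaled RPKM in newborns. CTSV, with which it could share reads, averaged 50.4 in newborns. Between the newborn groups CTSV was at -0.005 ± 0.31 on the log2 scale (exact permutation p = 0.989). CTSF_27368 was 2.34-fold higher in IB newborns (log2 -1.23 ± 0.28, exact permutation p = 0.00649, adjusted p = 0.105). Its levels were 13.4, 31.0 and 52.0 in IB and 8.33, 12.4 and 18.2 in IBxDU newborns, and 1 IB newborn, IB 504, lay within the IBxDU range. With both entries summed, CTSF had levels of 34.8, 41.1 and 55.8 in IB and 13.4, 19.3 and 30.9 in IBxDU newborns. The summed groups did not overlap (2.14-fold, log2 -1.10 ± 0.19, exact permutation p = 0.00216, adjusted p = 0.0682), and at 4 months they differed by -0.02 ± 0.20 (exact permutation p = 0.918).

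**Figure D4:**
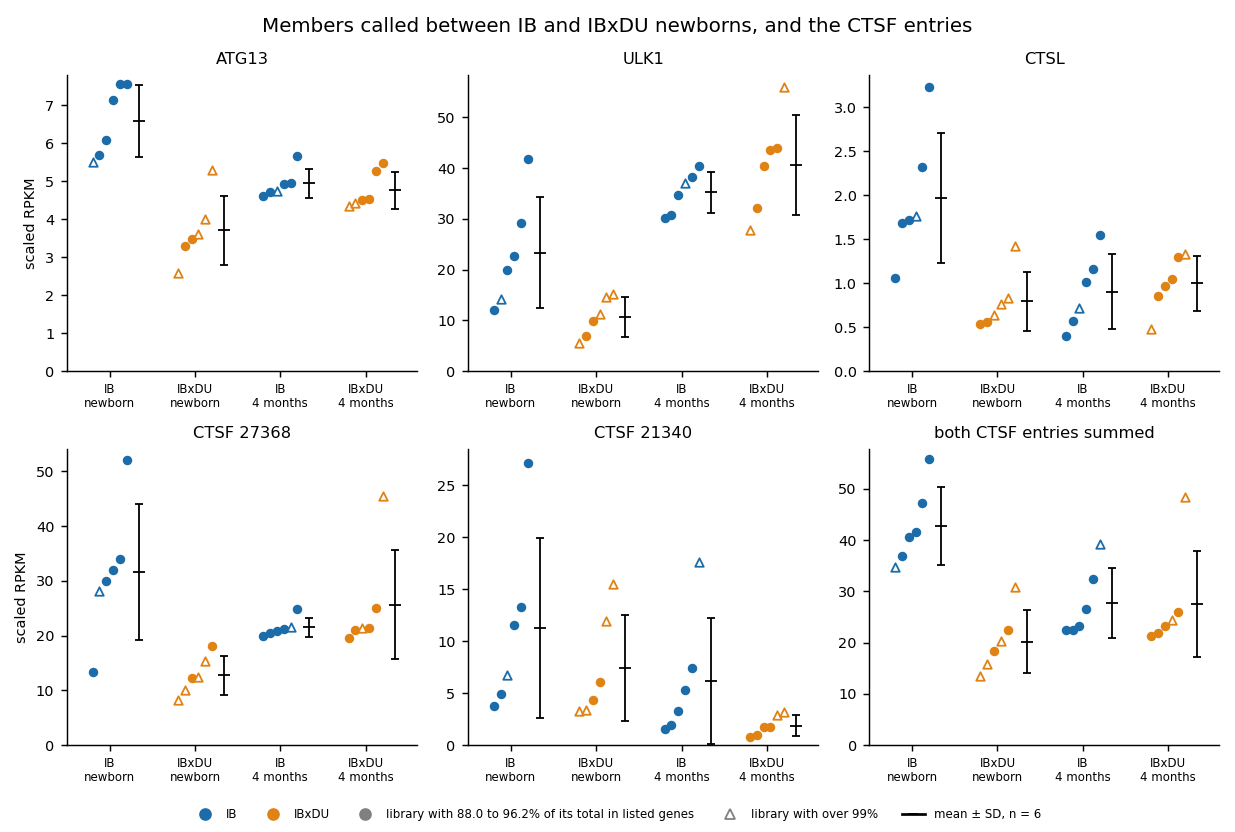
Scaled RPKM of the 4 members called between IB and IBxDU newborns, of CTSF_21340 and of both CTSF entries summed, in each of the 24 animals, with mean and SD of the 6 animals per group. ATG13 and the summed CTSF separate the newborn groups, and at 4 months the types overlap in all 6 panels.

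Because 4 of 6 IBxDU but 1 of 6 IB newborns had over 99% of the total in listed genes, the comparison was repeated in the other libraries alone (5 IB and 2 IBxDU newborns). ATG13 (log2 -0.96), CTSL (-1.62) and ULK1 (-1.46) were called there too, and CTSF_27368 at -0.97 was not called. CTSZ (-0.94) and, higher in IBxDU, ATP6V0A2 (0.96) were added. Of all 11736 genes tested there, 375 were called higher in IB and 572 higher in IBxDU. With a term for the kind of library added to the model, ULK1 was at -1.08 and was not called. A fit over all 4 groups shares 1 estimate of the spread. In it the adjusted p was 0.00500 for ATG13, 0.0101 for CTSF_27368, 0.0249 for ULK1 and 0.0282 for CTSL (limma). How many of all genes passed an adjusted p under 0.05 in this fit is not given here. The 4 values can therefore not be called particular to the members. These p-values also do not rest on the spread of the newborns alone. In ATG13 the SD was 0.94 and 0.91 scaled RPKM in IB and IBxDU newborns and 0.38 and 0.48 at 4 months. On this scale CTSL also had a smaller SD at 4 months, while ULK1 and CTSF_27368 did so in IB but not in IBxDU. Such SDs follow the level of a gene, and ULK1 averaged 10.6 in IBxDU newborns and 40.6 at 4 months. The fit used log2(scaled RPKM + 0.1), and these SDs do not give the spread on that scale. At the limits this fit called 353 genes higher in IBxDU and 394 higher in IB, of 12290. The main fit called 243 and 273. Of 61 other pathway genes tested, 2 were called higher in IB newborns and 1 in IBxDU newborns, none at an adjusted p under 0.05 (limma). FOXO3, a transcription factor for autophagy genes in muscle, and TPP1, a lysosomal peptidase, were higher in IB newborns (-1.38 ± 0.32 and -0.81 ± 0.23). VMP1, a membrane protein needed for autophagosome formation, was higher in IBxDU newborns (0.64 ± 0.16).

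At 4 months no member was called between 6 IBxDU and 6 IB pigs, of 46 tested, against 1.04% of all 10728 genes higher in IBxDU and 0.345% higher in IB. None passed an adjusted p under 0.05 (0.0932% of all genes higher in IBxDU, 0.028% higher in IB; limma), and none was without overlap (0.438% and 0.289%). At an unadjusted p under 0.05 (limma) there was 1 member in each direction, against 5.08% of all genes higher in IBxDU and 3.59% higher in IB. CTSF_21340 was lower in IBxDU (log2 -1.29 ± 0.52, exact permutation p = 0.0563) and ULK2 was higher (0.37, exact permutation p = 0.0541). A fit on the reads recovered from the table (voom) also called 0 members. The members called at birth were at -0.03 (ATG13), 0.20 (ULK1), 0.19 (CTSL) and 0.21 (CTSF_27368), with exact permutation p of 0.66, 0.219, 0.541 and 0.242. Of the other pathway genes 1 of 61 was called, TP53INP2, higher in IBxDU at 0.62 ± 0.20.

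Whether the difference between the types itself depended on age was tested as an interaction in all 24 libraries. No member of 48 passed an adjusted p under 0.05 (limma; 0.0241% of all 12441 genes did, 0.00804% toward IBxDU at birth and 0.0161% toward IB), and the voom fit also called 0. At an unadjusted p under 0.05 (limma) there were 5 members more toward IB at birth and 1 more toward IBxDU, against 7.56% and 5.88% of all genes. At p of at most 0.01 and 1.5-fold there were 5 members: 4 were more toward IB at birth (2.44% of all genes) and 1 was more toward IBxDU (1.56%). The 4 were CTSF_27368 (log2 -1.43 ± 0.34, adjusted p = 0.10), ATG13 (-0.78 ± 0.19, adjusted p = 0.107), ULK1 (-1.28 ± 0.37, adjusted p = 0.152) and CTSL (-1.39 ± 0.42, adjusted p = 0.167). The fifth was ATP6V0A2, a V0 subunit that anchors the pump in endosomal and Golgi membranes (0.90 ± 0.25, adjusted p = 0.131). Its levels were 1.16, 1.56 and 2.06 scaled RPKM in IB newborns, 1.35, 2.78 and 3.27 in IBxDU newborns, 1.51, 1.66 and 1.86 in IB at 4 months and 1.15, 1.34 and 1.66 in IBxDU at 4 months, with overlap at both ages. With the CTSF entries summed, the interaction was -1.07 ± 0.29 (adjusted p = 0.116).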

How the data were processed

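Whole-muscle mRNA of 24 pigs was sequenced in paired ends. The authors aligned the reads to Sscrofa 10.2, counted them per gene and deposited 1 table of RPKM values, named FPKM in parts of the methods; whether reads or pairs were counted is not given in the sources used here. Each value came out as whole reads within 0.001 in 100% of the 17846 genes above 0, which gave the totals. RPKM is relative to the library, so that a few abundant genes lower all others; libraries were therefore put on a common scale from the mean log ratio to the average library after trimming 30% at each end, before log2(scaled RPKM + 0.1). Multipliers were 0.613 to 0.978 in newborns and 1.03 to 1.96 at 4 months. Genes that averaged more than 0.5 RPKM in any group compared were fitted in limma 3.58.1 (R 4.3.3) with a trend, on the whole table, and p-values were adjusted over all genes tested. Calls took the limits of the study's methods, p of at most 0.01 and 1.5-fold, and for the interaction an adjusted p under 0.05. Printed levels use 1 scaling over the 24 libraries. Exact permutation tests were two-sided. Tests, tables and figures outside limma used Python 3.11.15, numpy 2.4.6, pandas 2.3.3, scipy 1.17.1 and matplotlib 3.10.9.

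Symbols came from a list of gene names for 11450 IDs and from the study's tables for 396. Members and gene lists were chosen with earlier results of these data known. Given with values were TFEB, SQSTM1, BECN1, ULK1, CTSF and ATP6V0D2, up to 3 called members per direction and class by age, every member called between genetic types or by interaction, and up to 4 other pathway genes per direction. A gene that this rule names is not reported here. Members and genes named beyond these, such as ATG2A, ATP6V0A2, FOXO3, TPP1 and VMP1, were chosen after their values were seen. The fitting steps were tested on simulated data. Alternatives were no scaling, quantile scaling, pseudocounts of 0.01 and 0.5, a filter at 1 RPKM or none, voom on the recovered reads, a term for the share of the total in listed genes, the 16 lower-share libraries alone, 1 fit for all groups, an adjusted p alone, and leaving out each animal.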

Additional observations from a re-analysis of the deposited data

Results flagged for a closer look

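In 10 of 83 group values of named members, 1 of the 6 animals stood apart from its group (its gap to the nearest animal, relative to the range of the group on the log2 scale, passed Dixon's critical value, which chance does in about 1 in 20 groups). Among newborns, IBxDU 429 was high in SQSTM1 (145 scaled RPKM, others 72.7 to 94.0) and in ATG4D (10.7, others 5.25 to 6.34). IB 503 was high in ATP6V0D2 (0.405, others 0 to 0.0292), on 37 reads. At 4 months, IB 903 was high in ATG9A (97.95, others 50.8 to 63.7) and in CTSC (29.0, others 18.7 to 21.1). IB 816 was high in ATG13 (5.68, others 4.62 to 4.96). CTSF_27368 was high in IB 889 (24.9, others 20.03 to 21.5) and in IBxDU 732 (45.5, others 19.6 to 25.1). ATP6V1G2 was low in IBxDU 758 (0.276, others 0.651 to 0.936), on 9 reads. ATP6V0D2 had its single read of the older groups in IB 889 (0.0306, others 0). With all others at 0 any read would be flagged, so that the chance rate does not apply to this flag.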

How the results depend on the processing

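Scaling mattered most for the age comparison. Without it, 17 members were higher at birth and 3 at 4 months, against 7495 and 719 of all 12180 genes. LAMP1 (0.17) and TFEB (0.11) changed sign, and the all-gene median rose to 0.91 by the same step. At an adjusted p alone, 7 were higher at birth. Leaving out 1 animal gave 2 to 4 members higher at birth and 17 to 19 at 4 months. For genetic type at birth, 1 member was called higher in IBxDU without scaling (ULK3), without a filter (ATP6V1C2), in the lower-share libraries alone and in the fit on all 4 groups (ATP6V0A2 in both), and an adjusted p alone left 0 higher in IB. Leaving out 1 newborn gave 0 to 2 and 3 to 5. At 4 months, CTSS was higher in IBxDU (1 member) and CTSF_21340 higher in IB (1 member) in the lower-share libraries. There 211 and 71 of all 10593 genes were called. CTSF_21340 was also called with a term for the library share. Leaving out 1 pig gave 0 to 1 each way. For the interaction, 1 and 4 members were called in the lower-share libraries, which hold 2 IBxDU newborns. There 483 and 328 of all 11933 genes were called, against 1 and 2 of 12441 in all libraries. At p of at most 0.01 with 1.5-fold there were 1 and 4 members as well, against 194 and 303 of all genes. Leaving out 1 animal gave 0 to 1 and 0 to 2. The cause of these changes was not tested. For single members, 446 values kept their direction and side of the limits, 22 lost a call, 7 gained one and 2 reversed; leaving out 1 animal, 754 held, 19 lost a call and 1 gained one. Depth limits ATP6V0D2, ATP6V1G2, CTSO and the 7 untested members. No paired analysis was possible because the numbers in the labels are animal numbers and none is shared between groups.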
